A study of Mus musculus with 9 samples.

Results

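Heart muscle transcripts were measured in whole mouse lung through 10 genes of the cardiac contractile and secretory apparatus: Myh6, Myh7, Myl4, Myl7, Tnni3, Tnnt2, Actc1, Mybpc3, Ryr2 and Nppa. The genes were chosen by name as markers of heart muscle, with earlier results of these data known. Every non-control array probe whose RefSeq transcript belongs to 1 of them was taken, which gave 15 of the 56605 probes on the array. In at least 1 group all 3 arrays had each of the 15 well above background, and the brightest probe of each gene entered a test over 16843 genes.

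Lungs came from mice with floxed alleles of Terf1, the gene of the telomere protein TRF1, and RNA of each whole lung was hybridised to 1 one-colour Agilent array. The 9-month cre group (SPC-cre TRF1flox/flox, n = 3) received tamoxifen for 9 months and was collected at the age of 11 months. The 3-month cre group (SPC-cre TRF1flox/flox, n = 3) received tamoxifen for 3 months and was collected at the age of 5 months. The 9-month control group (TRF1flox/flox littermates without cre, n = 3) likewise received tamoxifen for 9 months, to the age of 11 months. All mice, controls included, received 250 mg/kg of tamoxifen per week from 8 weeks of age. The SPC promoter drives cre in alveolar type 2 cells of the lung epithelium, and the RNA is from all cells of the organ. Controls were collected at the later age only, so age and length of treatment differ together with genotype when 3-month cre is set against controls.

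Levels below are log2 processed signal relative to the 75th percentile of the same array, so that 0 is the signal at that percentile. Levels of different probes are not comparable with each other. That percentile lay between 958 and 1430 intensity units, the share of probes well above background was 62.7% to 72.4%, and arrays correlated at r = 0.957 to 0.992. Slide 1 held 1 of the 3-month cre lungs (replicate 1) and all 3 controls, and slide 2 held all 9-month cre lungs and 3-month cre replicates 2 and 3. By Xist and Y-linked probes, 9-month cre replicate 1, 3-month cre replicate 2 and all 3 controls were male, and the other 4 lungs were female. Terf1 itself was at -0.52 ± 0.19 against control in 9-month cre (SE, limma adjusted p = 0.131) and at -0.55 ± 0.19 in 3-month cre (adjusted p = 0.190). Markers of lung epithelium were present on all arrays, with Sftpc, the gene of surfactant protein C, between 7.89 and 8.60.

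Heart muscle contracts when calcium released from internal stores lets myosin heads of the thick filament pull on actin of the thin filament. Heavy and light chains of myosin, the troponin complex on actin, and the ryanodine receptor that releases calcium have isoforms typical of heart muscle. In mice such muscle is not confined to the heart: sheaths of heart muscle cells run along the pulmonary veins into the lung. Atrial muscle also secretes the natriuretic peptide ANP, which lowers blood pressure by acting on kidney and vessels.

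Most of the 10 genes were highest in control lungs and lowest in 3-month cre lungs, and 1 of the differences from control, that of Myh7 in 9-month cre lungs, passed the test. By group mean, 7 genes were lowest in 3-month cre, intermediate in 9-month cre and highest in controls. Myh7 and Actc1 were lowest in 9-month cre and highest in controls, and Nppa was lowest in controls and highest in 3-month cre. Across the 9 arrays the genes ranged over 4.57-fold for Ryr2 to 18.8-fold for Nppa. Control replicate 3 had the highest level of 9 of the 10 genes, and 3-month cre replicate 1 had the highest level of Nppa. In a whole organ, fewer cells of a type and less RNA per cell cannot be told apart.

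**Figure D1:**
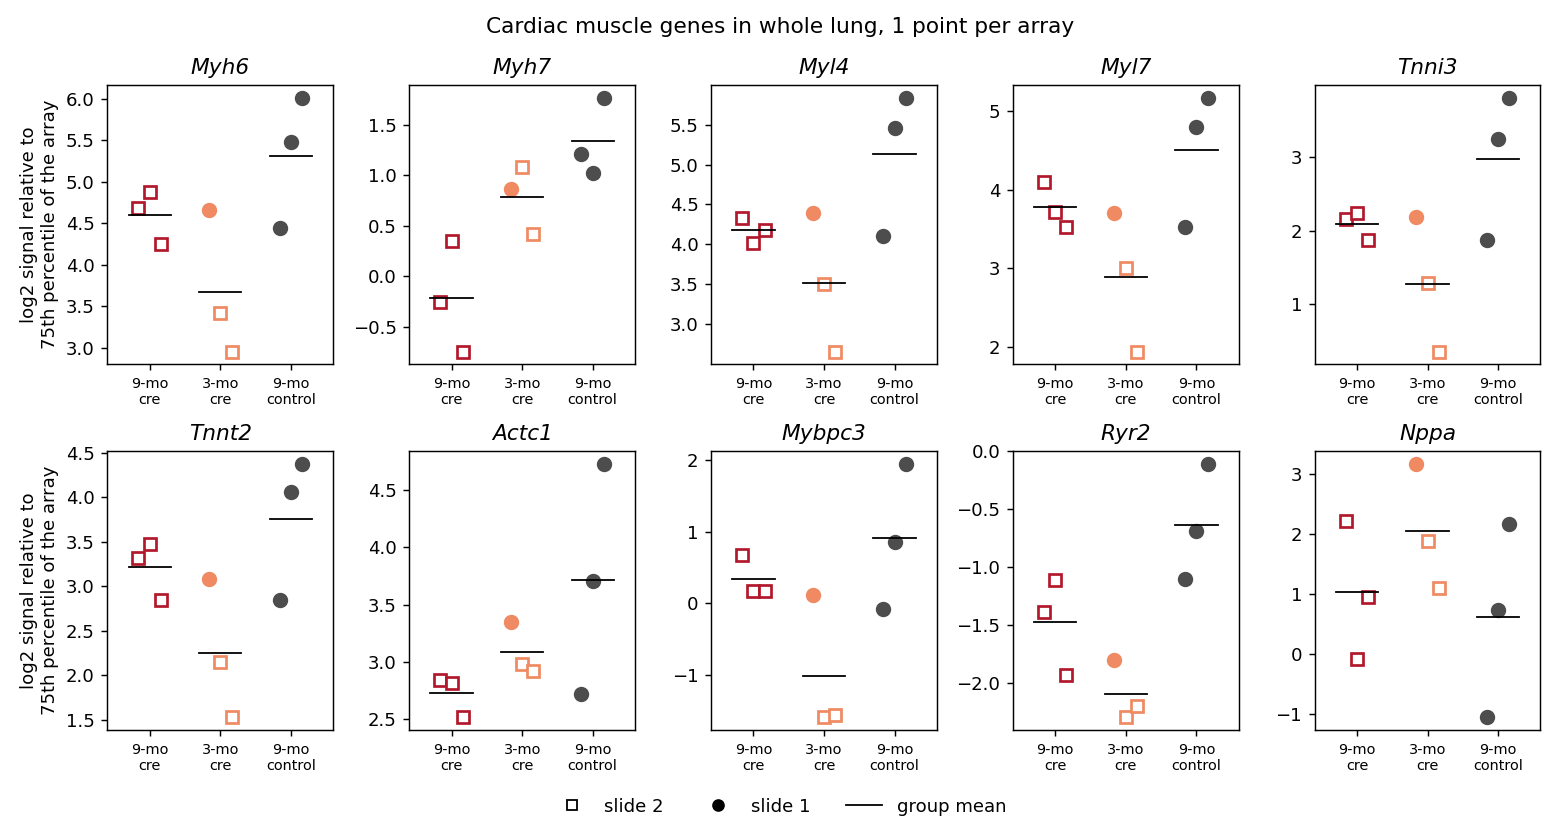
Level of each cardiac muscle gene on each array (log2 processed signal relative to the 75th percentile of the array), by group from 9-month cre to 3-month cre to 9-month control; each panel has its own axis. Filled circles are slide 1, open squares slide 2, and lines are group means of 3 arrays. For Myh7 the 9-month cre points lie between -0.74 and 0.35 and the controls between 1.02 and 1.77, whereas for most genes the groups overlap.

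The myosin heavy chains are the motors of the thick filament. Myh7 encodes the slow beta chain, which in the adult mouse heart is a minor form next to the alpha chain and is also the motor of slow skeletal fibres (chr14:54970684-54994626, GRCm38.p6). Its level was -0.26, 0.35 and -0.74 in 9-month cre, 0.86, 1.08 and 0.42 in 3-month cre, and 1.22, 1.02 and 1.77 in control lungs. All 9-month cre lungs lay below every lung of the other groups, while 3-month cre and control lungs overlapped.

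Myh7 fell in 9-month cre lungs against controls by 1.55 ± 0.31 on the log2 scale (SE, limma adjusted p = 0.0297), a signal 2.94-fold lower. It was the only one of the 10 genes called lower in that comparison, in which 2.81% of all genes were called lower and 3.65% higher. The blocked value, with slide in the model, was -1.44 with an unadjusted p of 0.0447 and an adjusted p of 0.977, and with sex in the model it was -1.43 (adjusted p = 0.114). The call was also lost without 9-month cre replicate 1 (-1.53, adjusted p = 0.0838), without 3-month cre replicate 2 (adjusted p = 0.0503), and without control replicate 1 (-1.61, adjusted p = 0.0626), 2 (-1.71, adjusted p = 0.0695) or 3 (-1.34, adjusted p = 0.085). Against 3-month cre lungs Myh7 was at -1.01 ± 0.31 in 9-month cre lungs (adjusted p = 0.081), and at -0.97 among the arrays of slide 2 alone. In 3-month cre lungs it was at -0.55 ± 0.31 against controls (adjusted p = 0.371).

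Myh6 encodes the fast alpha chain, the main motor of the adult mouse heart (chr14:54941921-54968017). The levels were 4.68, 4.87 and 4.24 in 9-month cre, 4.66, 3.42 and 2.96 in 3-month cre, and 4.44, 5.48 and 6.01 in control lungs. The 3-month cre lungs spread over 3.26-fold and the controls over 2.97-fold, and on this probe all 3 groups overlapped. Against controls the difference was -0.71 ± 0.50 in 9-month cre lungs (adjusted p = 0.38) and -1.63 ± 0.50 in 3-month cre lungs (adjusted p = 0.153). A dim probe for Myh6 was well above background on 8 of 9 arrays and gave -0.97 and -2.04 for the same comparisons. Over the 9 arrays r was 0.94 between the probes. On the dim probe the groups did not overlap: 9-month cre lay at -4.17 to -3.93, 3-month cre at -5.77 to -4.55 and controls at -3.90 to -2.42. Of all genes by their brightest probes, 15% had every 9-month cre lung below every control and 11.4% every 3-month cre lung below every control. In 14.6% every 9-month cre lung lay above every 3-month cre lung. In a limma fit over all probes the 3-month cre difference of the dim probe from controls had an adjusted p of 0.0626. Heavy chain genes are close in sequence, and cross-hybridisation between them was not tested because probe sequences were not used here.

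Myl4 and Myl7 encode the essential and regulatory myosin light chains of atrial muscle, which sit on the neck of the myosin head. Myl4 (chr11:104546017-104587215) was at 4.33, 4.02 and 4.18 in 9-month cre, 4.40, 3.50 and 2.66 in 3-month cre, and 4.11, 5.46 and 5.84 in control lungs. Myl7 (chr11:5896637-5898782) was at 4.09, 3.71 and 3.52 in 9-month cre, 3.71, 3.01 and 1.94 in 3-month cre, and 3.53, 4.80 and 5.17 in control lungs. For both genes control replicates 2 and 3 stood above all other lungs, while control replicate 1 lay among the cre lungs and 3-month cre replicate 3 stood lowest. In 9-month cre lungs the differences from controls were -0.96 ± 0.51 for Myl4 (adjusted p = 0.257) and -0.72 ± 0.51 for Myl7 (adjusted p = 0.384). In 3-month cre lungs they were -1.61 ± 0.51 for each gene, with adjusted p-values of 0.162 and 0.163.

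Mybpc3 encodes the heart form of myosin-binding protein C, which restrains the myosin heads (chr2:91118114-91136516). It was at 0.67, 0.18 and 0.18 in 9-month cre, 0.12, -1.59 and -1.56 in 3-month cre, and -0.07, 0.86 and 1.95 in control lungs. Every 9-month cre lung was above every 3-month cre lung, and both groups overlapped the controls. Against 3-month cre lungs the difference in 9-month cre lungs was 1.35 ± 0.58 (unadjusted p = 0.0464 in limma, adjusted p = 0.167). Against controls the 3-month cre value was -1.92 ± 0.58, the lowest of the 10 genes in that comparison, with an adjusted p of 0.148.

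On the thin filament, Actc1 encodes cardiac alpha-actin, the filament itself (chr2:114047282-114052875). Its level was 2.84, 2.82 and 2.51 in 9-month cre, 3.35, 2.98 and 2.92 in 3-month cre, and 2.72, 3.71 and 4.73 in control lungs. The cre groups were tight, with a spread of 1.25-fold and 1.34-fold, whereas the controls covered 4.05-fold and overlapped the 9-month cre lungs. The 9-month cre lungs all lay below the 3-month cre lungs, at a log2 difference of -0.36 with a 95% interval from -1.34 to 0.62 (adjusted p = 0.614). Against controls the difference was -0.996 ± 0.43 in 9-month cre lungs (adjusted p = 0.176) and -0.64 ± 0.43 in 3-month cre lungs (adjusted p = 0.45).

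Tnnt2 and Tnni3 encode cardiac troponin T, which anchors the troponin complex to tropomyosin, and cardiac troponin I, which blocks the actin site until calcium binds. Tnnt2 (chr1:135836315-135852268) was at 3.32, 3.48 and 2.84 in 9-month cre, 3.09, 2.15 and 1.52 in 3-month cre, and 2.84, 4.05 and 4.38 in control lungs. Tnni3 (chr7:4518305-4522718) was at 2.16, 2.24 and 1.88 in 9-month cre, 2.18, 1.29 and 0.36 in 3-month cre, and 1.87, 3.25 and 3.81 in control lungs. The same lungs stood out as for the light chains: control replicates 2 and 3 at the top and 3-month cre replicates 2 and 3 at the bottom. In 9-month cre lungs the differences from controls were -0.54 ± 0.48 for Tnnt2 (adjusted p = 0.48) and -0.88 ± 0.55 for Tnni3 (adjusted p = 0.327). In 3-month cre lungs they were -1.51 ± 0.48 (adjusted p = 0.161) and -1.70 ± 0.55 (adjusted p = 0.169).

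Ryr2 encodes the ryanodine receptor through which heart muscle releases stored calcium, and is also expressed in neurons (chr13:11553099-12106945). It was at -1.38, -1.11 and -1.93 in 9-month cre, -1.80, -2.30 and -2.20 in 3-month cre, and -1.11, -0.69 and -0.11 in control lungs. On the brightest probe no cre lung reached the lowest control, although 9-month cre replicate 2 came close to it. Against controls the difference was -1.47 ± 0.29 in 3-month cre lungs (adjusted p = 0.0809) and -0.84 ± 0.29 in 9-month cre lungs (adjusted p = 0.112). Without 9-month cre replicate 3, which enters this comparison only through the shared spread, the 3-month cre value had an adjusted p of 0.0444, and without 3-month cre replicate 2 it had an adjusted p of 0.289. The other probe for Ryr2 gave -1.40 and -1.20, with r = 0.89 between the probes. On it both cre groups overlapped the controls: 3-month cre replicate 1 (-2.06) and 9-month cre replicate 2 (-2.35) lay above control replicate 1 (-2.59).

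Nppa encodes the precursor of the hormone ANP, made by atrial muscle (chr4:148000722-148002074). Its level was 2.23, -0.08 and 0.95 in 9-month cre, 3.18, 1.88 and 1.11 in 3-month cre, and -1.05, 0.75 and 2.16 in control lungs. The spread within groups was the widest of the 10 genes, 4.96-fold, 4.21-fold and 9.31-fold in that order, and all groups overlapped. Unlike the other 9 genes it was not lower in cre lungs by group mean: the difference from controls was 0.41 ± 0.90 in 9-month cre lungs (adjusted p = 0.79) and 1.44 ± 0.90 in 3-month cre lungs (adjusted p = 0.418). For 3-month cre lungs its 95% interval ran from -0.62 to 3.50, so that neither a small decrease nor a rise of several fold was distinguished. In 9-month cre lungs the sign turned without 9-month cre replicate 1 (-0.18) and without control replicate 1 (-0.42). The other Nppa probe was correlated at r = 0.995 and gave 0.51 and 1.43 for the same differences.

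As a group, 9 of the 10 genes were lower in 9-month cre than in control lungs, with a median log2 difference of -0.78 against 0.02 over all genes tested. Only Myh7 passed the adjusted threshold. At an unadjusted p under 0.05 in limma, 3 of 10 were lower (Myh7, Actc1 and Ryr2), where 12.5% of all genes were. In 2 of 10 by their brightest probes, Myh7 and Ryr2, every 9-month cre lung lay below every control, as for 15% of all genes. The median was -1.18 without control replicate 1 and -0.43 without control replicate 3.

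Slide 1 held no 9-month cre lung and slide 2 no control lung, so no within-slide value exists for 9-month cre against control. In the fit with slide as a block, which joins the slides through 3-month cre lungs, the median turned to 0.49 and 3 of 10 genes were below 0. Myh6 was then at 0.77, Myl4 at 0.36, Myl7 at 0.51, Tnni3 at 0.48, Tnnt2 at 0.70 and Mybpc3 at 1.12. The block rests on 3-month cre replicate 1 alone on slide 1. In the median over all genes tested, its standard errors were 1.87 times those without it, and for Myh6 0.70 against 0.50. With sex in the model the median was -0.82, and the male lung of 9-month cre set against the 3 male controls gave -0.69, with 9 of 10 genes below 0. Slide was not separable from group in this comparison, and its part in the result was not tested beyond these values.

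In 3-month cre against control lungs, 9 of 10 genes were below 0, with a median of -1.56 against 0.05 over all genes. limma called 0 of the 10, where 0.0831% of all genes were called lower and 0.368% higher. At an unadjusted p under 0.05, 7 of 10 were lower, where 7.09% of all genes were: Myh6, Myl4, Myl7, Tnni3, Tnnt2, Mybpc3 and Ryr2. By the brightest probe of each gene, groups did not overlap for Ryr2 alone, as for 11.4% of all genes. Within slide 1, the 3-month cre lung there differed from the 3 controls by a median of -0.70, with 9 of 10 genes below 0 and Nppa at 2.56. Weighting arrays by their estimated quality called those 7 genes, at -1.99 for Mybpc3 to -1.44 for Ryr2 with adjusted p-values of 0.00527 to 0.0294, in a fit that called 4294 genes against 76. With sex in the model the median was -1.51, and the male 3-month cre lung differed from the male controls by a median of -1.62.

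In 9-month cre against 3-month cre lungs, which share the cre genotype and differ in age and treatment, the median was 0.74 against -0.03 over all genes. Genes above 0 were Myh6 (0.92 ± 0.50), Myl4, Myl7, Tnni3, Tnnt2, Mybpc3 and Ryr2, and those below 0 were Myh7, Actc1 and Nppa (-1.02 ± 0.90). limma called 0 of 10, where 1.79% of all genes were called higher and 3.2% lower. At an unadjusted p under 0.05, Mybpc3 was higher, where 12.7% of all genes were, and Myh7 was lower, where 16% were. By the brightest probe of each gene, lungs did not overlap for Mybpc3 on the higher side, as for 14.6% of all genes. On the lower side they did not overlap for Myh7 and Actc1, as for 19%. The 5 arrays of slide 2 gave a median of 1.18. Leaving out 3-month cre replicate 3 brought the median to 0.39, and leaving out 3-month cre replicate 1 brought it to 1.18. Without 9-month cre replicate 2 Myh7 was called, at -1.29 (adjusted p = 0.0453).

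**Figure D2:**
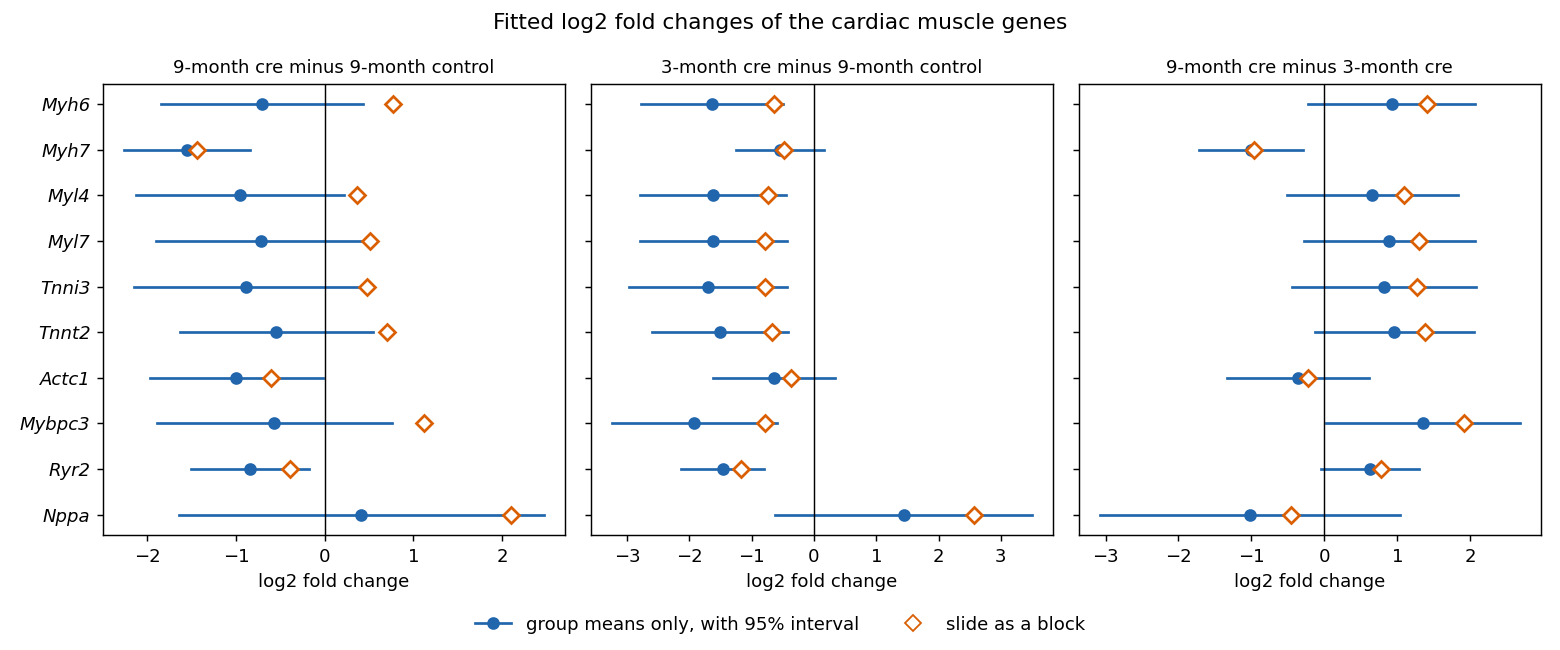
Log2 fold changes of the 10 cardiac muscle genes in the 3 comparisons, with each axis in log2 units. Circles and bars give the fit on group means with its 95% interval, and open diamonds the fit with slide as a block. For 9-month cre against control, Myh7 stays near -1.5 in both fits while Myh6, Myl4, Myl7, Tnni3, Tnnt2 and Mybpc3 cross 0.

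Most of the 10 genes were high or low together from lung to lung. Over the 9 arrays, Tnni3 correlated with the mean centred level of the other 9 genes at r = 0.970, Myl4 at 0.963, Myl7 at 0.951, Myh6 at 0.945 and Tnnt2 at 0.933. Mybpc3 followed at 0.892, Ryr2 at 0.843 and Actc1 at 0.805, while Myh7 was at 0.383 and Nppa at 0.117. All levels of 1 array share its RNA, hybridisation and scaling, and the groups differ, so these are descriptions of the 9 arrays. Without control replicate 3 and 3-month cre replicate 3, the arrays farthest from the middle, Tnni3 was at 0.928 and Ryr2 at 0.614 over 7 arrays.

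Nppa and Myh7 departed from the others in different ways. Taken as deviations from the group means, Nppa correlated with the other genes at r = 0.832 over the 9 arrays, while its group means were in another order than theirs. This did not hold in every group, since in 9-month cre Nppa was lowest in replicate 2, where Myh6 was highest. Myh7 reached 0.432 in the same measure. The mean centred level over the 10 genes was 0.12, -0.10 and -0.38 in 9-month cre, 0.23, -0.60 and -1.13 in 3-month cre, and -0.30, 0.72 and 1.43 in control lungs. Control replicate 1 thus lay below 3 cre lungs, and the lung of 3-month cre on slide 1 stood above the 2 on slide 2.

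**Figure D3:**
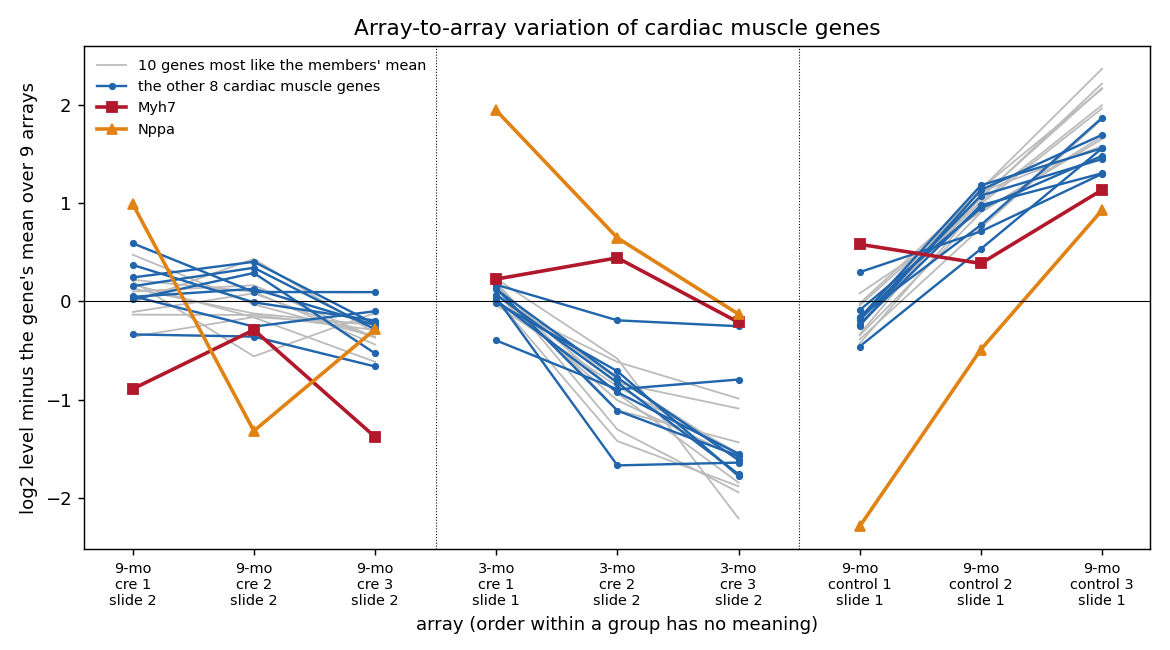
Level of each gene on each array minus its mean over the 9 arrays (log2), with the slide under each array. Blue lines are 8 of the cardiac muscle genes, red Myh7, orange Nppa, and grey the 10 genes of the whole array most like their mean; lines join replicates of a group only to guide the eye. Control replicate 3 is at the top for nearly all lines, and Nppa runs parallel to the others within the 3-month cre and control groups at a different height.

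The promoters of these genes carried different short motifs. Shown are the 250 bases before the annotated start of Myl7 and Actc1, the members with a CArG box, the site of serum response factor, and of Nppa and Myh7, the members that followed the others least. Sequences are from RefSeq (GRCm38.p6), 5′ to 3′ on the strand of the gene, and capitals mark motif matches:
Myl7 (chr11:5898783-5899032, minus strand): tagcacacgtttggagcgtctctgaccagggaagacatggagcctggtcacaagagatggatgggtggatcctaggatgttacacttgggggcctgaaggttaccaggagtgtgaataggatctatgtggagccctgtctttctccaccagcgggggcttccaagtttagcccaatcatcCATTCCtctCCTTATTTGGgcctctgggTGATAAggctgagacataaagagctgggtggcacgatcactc
Actc1 (chr2:114052876-114053125, minus strand): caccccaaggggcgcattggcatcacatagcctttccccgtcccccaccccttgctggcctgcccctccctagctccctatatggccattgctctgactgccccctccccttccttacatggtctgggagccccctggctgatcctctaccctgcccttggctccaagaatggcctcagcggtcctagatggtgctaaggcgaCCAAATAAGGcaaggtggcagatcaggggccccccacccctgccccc
Nppa (chr4:148000472-148000721, plus strand): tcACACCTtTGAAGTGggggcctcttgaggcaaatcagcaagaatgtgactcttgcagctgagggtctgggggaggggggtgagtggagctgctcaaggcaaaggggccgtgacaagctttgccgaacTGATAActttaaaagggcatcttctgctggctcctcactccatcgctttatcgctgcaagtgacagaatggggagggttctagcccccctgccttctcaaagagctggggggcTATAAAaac
Myh7, its more upstream start (chr14:54994627-54994876, minus strand): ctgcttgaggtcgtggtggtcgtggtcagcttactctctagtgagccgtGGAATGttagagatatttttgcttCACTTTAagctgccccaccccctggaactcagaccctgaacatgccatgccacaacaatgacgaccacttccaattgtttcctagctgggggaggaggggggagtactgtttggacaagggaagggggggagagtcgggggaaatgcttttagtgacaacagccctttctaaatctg

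The RefSeq table held 12 windows for the 10 genes, and matches on both strands were counted. The CArG box was in 2 of 12 windows, Myl7 at positions -61 to -52 and Actc1 at -47 to -38 from the start, and in 1.467% of 32851 windows of all genes. A GATA motif (AGATAA or TGATAA) was in 4 of 12 and 16.6% of all windows, an MCAT motif (CATTCC) in 4 of 12 and 12.64%, and an NKX2-5 motif (TNAAGTG) in 2 of 12 and 10.06%. A TBX5 motif (AGGTGT) was in 2 of 12 and 11.83%, a TATA box (TATAAA) in 1 of 12 and 12.37%, and the MEF2 motif in 1 of 12, Mybpc3, and 2.919%. The CArG and MEF2 matches read the same position on both strands, and no other match overlapped another in the windows of these genes. In the sequences shown, Nppa has the GATA, NKX2-5, TBX5 and TATA letters, Myh7 an MCAT and an NKX2-5 match, and Myl7 a GATA and an MCAT match beside its CArG box. A match is a description of these letters and shows no binding.

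Many of the genes most like the members over the 9 arrays belonged to the lists of sarcomere, calcium handling, transcription factor and energy metabolism genes described below. Members, clone names and numbered identifiers were left out, which left 15472 genes to compare, 77 of them in those lists. With the members' mean centred level 69 genes had r of 0.9 or more, 33 of them in those lists. At r of 0.95 or more there were 30 genes, 18 of them in those lists. The 10 highest were Ckmt2 (r = 0.986), the mitochondrial creatine kinase of striated muscle, Fndc5, Perm1, Nkx2-5, Klhl31, Tnnc1, Hrc, Myh13, Pgam2 and Casq2 (r = 0.970). Of these 10, 7 were in those lists, and Fndc5, Klhl31 and Myh13 were in none. Nkx2-5 is a transcription factor of heart muscle, Tnnc1 the troponin C of cardiac and slow fibres, Pgam2 a muscle glycolytic enzyme, and Hrc and Casq2 bind calcium in its store. Without the 2 extreme arrays their r was between 0.894 and 0.973. Their log2 differences from control lay between -1.26 and -0.81 in 9-month cre lungs and between -2.16 and -1.28 in 3-month cre lungs, with 0 of 10 called in either.

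Markers that separate atrial or pulmonary vein muscle from ventricular muscle did not all follow the same course. Sln, the gene of the atrial calcium pump regulator sarcolipin, was at 2.74, 2.73 and 2.50 in 9-month cre, 2.95, 2.23 and 0.59 in 3-month cre, and 2.44, 3.92 and 3.96 in control lungs. Myl2, the ventricular regulatory light chain, was at -3.70, -3.73 and -4.56 in 9-month cre, -5.11, -4.53 and -4.98 in 3-month cre, and -4.90, -4.63 and -4.47 in control lungs. For Sln, as for Myl4 and Myl7, control replicates 2 and 3 were highest and 3-month cre replicate 3 lowest, whereas for Myl2 the controls were not at the top. Against controls, Sln was at -0.79 ± 0.60 in 9-month cre lungs (adjusted p = 0.42) and -1.52 ± 0.60 in 3-month cre lungs (adjusted p = 0.227), and Myl2 at 0.67 ± 0.26 (adjusted p = 0.143) and -0.21 ± 0.26 (adjusted p = 0.695). Myl3, the ventricular essential light chain, was at -1.271 ± 0.623 (adjusted p = 0.223) and -1.497 ± 0.623 (adjusted p = 0.247) for the same comparisons. Its highest levels were in control replicates 3 (2.01) and 2 (0.52), as for Sln, Myl4 and Myl7. Hey2 is a transcriptional repressor of ventricular muscle that is also found in vessels. It lay above 0 against controls, at 0.19 ± 0.46 (adjusted p = 0.81) and 1.27 ± 0.46 (adjusted p = 0.204). Nppa, also an atrial marker, was at 0.41 and 1.44, and Myh7, also a ventricular marker, at -1.55 and -0.55. In neither set of markers did all genes lie on the same side of 0. Irx4, a ventricular transcription factor, was well above background on 1 of 9 arrays and was not tested. The probes of Myl2 and, on most arrays, Hey2 were dim, and with normexp Myl2 was at 0.33 in 9-month cre against control.

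Other sarcomere and Z-disc genes of heart muscle were measured for 23 of 25. In 9-month cre against control lungs their median was -0.89, with 22 below 0 and 0 called. At an unadjusted p under 0.05, 5 were lower and 1 higher, where 12.5% of all genes were lower and 14.8% higher. Mybphl, a relative of myosin-binding protein C found in atrial muscle, was at -1.52 ± 0.72 (adjusted p = 0.211). In 3-month cre against control lungs the median was -1.41, with 0 called, and 15 were lower and 0 higher at an unadjusted p, where 7.09% of all genes were lower and 11.6% higher. Among the 15 was Ttn, the gene of titin, at -2.27 ± 0.52 (adjusted p = 0.103). With slide as a block the medians were 0.09 and -0.59. In 9-month cre against 3-month cre lungs the median was 0.25, with 0 called and 1 higher at an unadjusted p, as were 12.7% of all genes.

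Genes of calcium handling and excitation were measured for all 24. Their median against control was -0.71 in 9-month cre lungs, with 0 called and 7 lower at an unadjusted p under 0.05. In 3-month cre lungs it was -0.50, with 0 called and 10 lower. Of all genes, 12.5% were lower at that threshold in 9-month cre and 7.09% in 3-month cre. Kcnj5, a subunit of the atrial potassium channel opened by acetylcholine, was at -1.76 ± 0.59 in 9-month cre lungs (adjusted p = 0.102) and -2.26 ± 0.59 in 3-month cre lungs (adjusted p = 0.123). Muscle energy metabolism (15 of 16 measured) had medians of -0.87 and -1.29, with 0 called. At an unadjusted p, 2 and 10 were lower, where 12.5% and 7.09% of all genes were. Mb, the gene of the oxygen store myoglobin, was at -1.51 ± 0.68 (adjusted p = 0.193) and -1.86 ± 0.68 (adjusted p = 0.202). With slide as a block the calcium handling medians were -0.03 and -0.23 and the energy metabolism medians 0.08 and -0.63.

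Of 19 cardiac transcription factors, 15 were measured, while Tbx20, Shox2, Isl1 and Irx4 did not pass the filter on dim probes. None was called against control in either cre group. At an unadjusted p 4 were lower in each, where 12.5% and 7.09% of all genes were, and 0 were higher in 9-month cre and 2 in 3-month cre, where 14.8% and 11.6% of all genes were. The medians were -0.33 for 9-month cre and -0.13 for 3-month cre. Gata4, a zinc finger activator of heart genes that is also found in mesothelium, was at -0.90 ± 0.38 in 9-month cre lungs (adjusted p = 0.172) and -1.42 ± 0.38 in 3-month cre lungs (adjusted p = 0.128). In 9-month cre against 3-month cre lungs 1 was called higher and 1 lower, as were 1.79% and 3.2% of all genes. Hand2 rose (limma adjusted p = 0.0201) but was not well above background in any 3-month cre lung. With the main processing its rise was at least 1.87-fold, taking the dimmest well-above-background signal of each array as a floor. Mef2d fell by 0.61 ± 0.13 (adjusted p = 0.0427). Both calls were lost with slide as a block, at adjusted p-values of 0.0925 and 0.136, and when 1 array was left out Hand2 was called in 6 of 9 fits and Mef2d in 2 of 9, with the highest adjusted p of each without 3-month cre replicate 1. Mef2d was also not called with sex in the model (adjusted p = 0.0604), median scaling (0.0666), no filter (0.0801) or the 2 groups alone (0.0744), and averaging its probes gave -0.14 (adjusted p = 0.53). For Hand2 a log2 difference of 1.28 became 0.46 with normexp (adjusted p = 0.0375) and 0.32 with the deposited values (adjusted p = 0.0602). Both are smaller than a 1.87-fold rise, so that bound holds for the main processing only.

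The natriuretic peptide system includes the receptor and the protease through which ANP acts and is removed, and 7 of its 8 genes were measured. In 9-month cre against control lungs 2 fell, as did 2.81% of all genes. At an unadjusted p 3 were lower and 2 higher, where 12.5% and 14.8% of all genes were. Mme, the gene of neprilysin, a protease that degrades ANP, was at 0.69, 0.99 and 0.44 in 9-month cre lungs and at 1.63, 1.62 and 1.88 in control lungs. Npr1, the receptor that ANP activates, was at -4.23, -4.11 and -4.29 in 9-month cre lungs and at -3.52, -3.17 and -3.33 in control lungs. In both genes every 9-month cre lung lay below every control. Mme fell by 1.00 ± 0.15 (adjusted p = 0.0173) and Npr1 fell by 0.87 ± 0.12 (adjusted p = 0.0119).

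Both also fell in 9-month cre against 3-month cre lungs, Mme by 1.33 ± 0.15 (adjusted p = 0.0179) and Npr1 by 0.83 ± 0.12 (adjusted p = 0.0215). With slide as a block the values against control were -0.87 and -0.82, with adjusted p-values of 0.966 and 0.936, and with sex in the model the adjusted p-values were 0.0743 and 0.0593. With the 2 groups alone Mme was not called against control (adjusted p = 0.0541), and with normexp Npr1 was called at -0.51 against control and at -0.41 against 3-month cre. Leaving out 1 array kept Npr1 called against control in 9 of 9 fits and Mme in 7 of 9, the highest adjusted p being 0.0485 and 0.0545, each without control replicate 2. Against 3-month cre the counts were 5 of 9 and 7 of 9, with the highest adjusted p of 0.108 and 0.0925 without 3-month cre replicate 1. In 3-month cre against control lungs 0 of 7 were called and 1 was lower at an unadjusted p, as were 7.09% of all genes. That gene was Corin, the protease that activates ANP, at -0.57 ± 0.22 (adjusted p = 0.227). Nppb, another peptide gene of this list, was at 0.75 ± 0.39 in the same comparison (adjusted p = 0.337). Its levels were -4.20, -5.12 and -4.88 in 9-month cre, -5.45, -5.53 and -5.15 in 3-month cre, and -6.79, -6.36 and -5.22 in control lungs. The Nppb probe was dim, well above background in 2 of the 3-month cre lungs and 1 control, and it passed the filter only through 9-month cre. Mme is also expressed by lung stroma and neutrophils and Npr1 by endothelium and smooth muscle, so their levels need not come from heart muscle.

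Markers of tissues that lie beside heart muscle were read on the same arrays, as summed signal relative to the 75th percentile of the array. Bright probes weigh most in such a sum. Smooth muscle and pericyte markers (16 of 16 measured) summed to 143.0 to 182.3 in 9-month cre lungs, 171.8 to 203.6 in 3-month cre lungs and 162.9 to 282.4 in controls, with the highest sum in control replicate 3. Their median was -0.57 in 9-month cre and -0.24 in 3-month cre lungs against controls, with 0 called in limma. At an unadjusted p under 0.05, 5 and 0 were lower, where 12.5% and 7.09% of all genes were. Skeletal muscle markers (12 of 17) summed to 2.75 to 3.69, 3.34 to 3.81 and 3.33 to 5.50 in the same order of groups, also highest in control replicate 3. The defining myosins Myh1, Myh2 and Myh4 with Actn3 and Myot did not pass the filter, and of the 12 measured 0 were called. At an unadjusted p 4 were lower and 1 higher in 9-month cre against control, where 12.5% and 14.8% of all genes were. In 3-month cre against control 5 were lower and 1 higher, where 7.09% and 11.6% of all genes were. Brown fat and oesophagus markers (5 of 9) summed to 1.30 to 4.44, 1.40 to 4.90 and 1.18 to 9.62, highest in control replicate 2, and Elovl3, Krt4, Krt13 and Sprr3 did not pass; 0 were called and 0 had an unadjusted p under 0.05.

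Epicardium and mesothelium markers were measured for 9 of 10. They summed to 31.6 to 57.0 in 9-month cre, 30.1 to 43.4 in 3-month cre and 35.5 to 44.3 in control lungs. Their mean centred level, in which each marker counts alike, was -0.34 to 0.20, -0.66 to 0.11 and 0.02 to 0.67 in that order. In each cre group against control 0 were called and 3 were lower at an unadjusted p, where 12.5% and 7.09% of all genes were. Lrrn4, a marker of mesothelium, was at -1.65 ± 0.54 in 9-month cre lungs (adjusted p = 0.0992). Lung epithelium markers (10 of 10) summed to 1145 to 1464, 1074 to 1390 and 1116 to 1222, with 0 called. In 9-month cre against control 1 was higher and 1 lower at an unadjusted p, where 14.8% and 12.5% of all genes were. Venous and lymphatic endothelium markers (12 of 12) summed to 119.7 to 198.6, 117.9 to 141.2 and 112.4 to 127.7. Of these, 2 rose in 9-month cre against control lungs, as did 3.65% of all genes. At an unadjusted p 1 was lower, as were 12.5% of all genes. Ackr1, a chemokine-binding receptor of venules, rose by 2.60 ± 0.40 (adjusted p = 0.0172), and Mmrn1, a multimerin of lymphatic endothelium and platelets, rose by 1.08 ± 0.19 (adjusted p = 0.0233). Ackr1 was called in 9 of 9 fits that left out 1 array and Mmrn1 in 6 of 9 (highest adjusted p = 0.0645, without control replicate 2), and neither with slide as a block (2.84, adjusted p = 0.936, and 0.94, adjusted p = 0.977). Both calls were also lost with sex in the model (adjusted p = 0.0775 and 0.0945) and with the 2 groups alone (adjusted p = 0.0543 and 0.0647). The part of these tissues in the levels of the heart muscle genes was not tested.

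**Figure D4:**
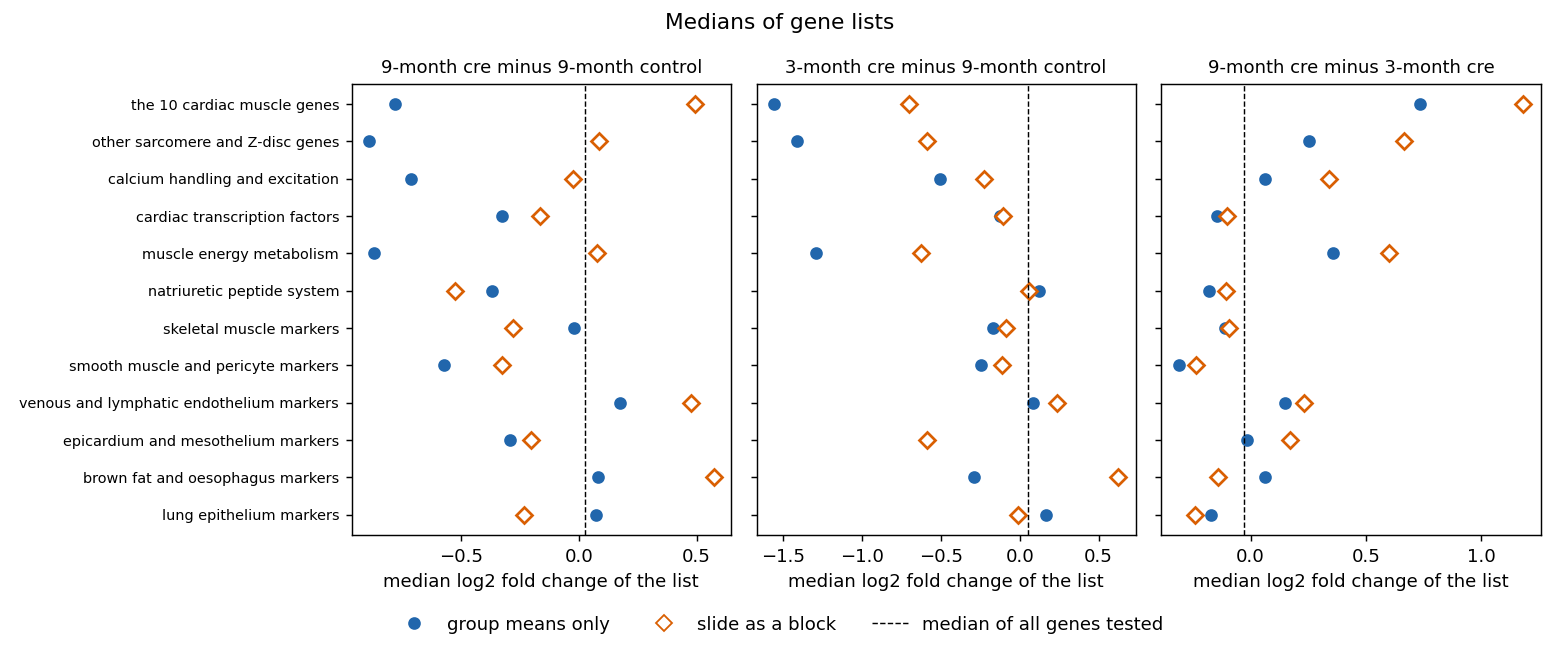
Median log2 fold change of the 10 cardiac muscle genes and of 11 other gene lists in the 3 comparisons, without (circles) and with (open diamonds) slide as a block; the dashed line is the median of all genes tested. The cardiac muscle, sarcomere and energy metabolism lists lie left of the line in both comparisons with control lungs, and for 9-month cre their diamonds lie right of it.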

How the data were processed

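Whole-lung RNA of 9 mice was measured on 9 one-colour arrays, 3 per group as the labels assign them. Per the file headers, the deposited scanner values are intensities per spot from Agilent Feature Extraction 10.7.3.1, background-subtracted within an array and not scaled between arrays. A second deposited table of intensities, brought by the authors to nearly the same distribution on all arrays by a tool not given in the sources used here, served as an alternative.

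Control spots and irregular spots were left out, spots of a probe were averaged as log2, and the 75th percentile of the array's non-control probes was subtracted. A probe was kept if all 3 arrays of any group had it well above background (37647 of 56605). RefSeq transcripts gave symbols for 32994 of all probes, and the brightest probe by mean over all arrays stood for a gene. This left 16843 genes, 11 of them lacking a value on at least 1 array, where the fit used the remaining arrays.

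All 9 arrays were fitted together on group means in limma 3.58.1 under R 4.3.3, with 6 residual degrees of freedom. Tests were two-sided, p-values were adjusted by Benjamini-Hochberg over all genes within a comparison, and genes at an adjusted p under 0.05 were called (rose or fell). Errors are SE of the log2 fold change from 3 arrays per group. The procedure was tested on simulated data with independent noise for each gene and known changes in 9-month cre only. The simulated arrays held no effect of slide or sex and no variation shared between genes, so they cannot show how these affect the calls. The number of arrays limits the precision, and p-values measure the spread between lungs labelled as biological replicates. A group that is not well above background on any array gives only a bound, against the dimmest well-above-background signal of each array. Such a bound holds for the main processing only.

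The members, the 11 other gene lists and the named genes were chosen with earlier results of these data known. Named are all members, up to 4 called genes of a list or up to 2 given as values where none was called (not all of these are printed, and a named gene is not reported here), Terf1, Sftpc, the markers of atrial and ventricular muscle, and the 10 genes most correlated with the members' mean. Alternatives changed background correction, scaling, filter, probe choice, arrays fitted, slide, sex, array weights and replicate number as a block. Replicate numbers did not pair lungs: deviations from group means of lungs with the same number correlated at -0.24 to 0.04.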

Additional observations from a re-analysis of the deposited data

How the results depend on the processing

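The members' medians kept their sign under every alternative run except slide as a block for 9-month cre against control (0.49). For 3-month cre against control, slide as a block and the arrays of slide 1 alone each gave -0.70. Leaving out 1 array gave medians of -1.18 to -0.43 for 9-month cre against control, -2.01 to -1.16 for 3-month cre against control and 0.39 to 1.18 for 9-month against 3-month cre. The count of members called was 0 to 1 in each comparison when 1 array was left out. For 9-month cre against control it was 0 with no filter on dim probes, with the 2 groups alone, with slide as a block, with sex in the model and with the replicate block, where Myh7 had an adjusted p of 0.0521, 0.066, 0.977, 0.114 and 0.0676. With array weights it was 7 for 3-month cre against control and 1 (Myh7) for 9-month against 3-month cre, where the weights ran from 0.309 to 2.95.

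Signs that turned with slide as a block in 9-month cre against control were those of Myh6 (0.77), Myl4 (0.36), Myl7 (0.51), Tnni3 (0.48), Tnnt2 (0.70), Mybpc3 (1.12), Sln (0.75), Mybphl (0.31), Gata4 (0.022), Mb (0.50), Adipoq (0.57), Plin1 (0.41), Sftpb (-0.18) and Sftpc (-0.16). Sftpc in 3-month cre was at -0.20 with the block, -0.020 with quantile normalization and -0.037 with the deposited values, and in 9-month cre at -0.011 with the deposited values. Myl2 in 3-month cre was at 0.11 with sex in the model. Nppa in 9-month cre against control ran from -0.42 (without control replicate 1) to 1.19 (without control replicate 3) and was at -0.18 without 9-month cre replicate 1. The cause of these changes was not tested. Taking the 75th percentile over spots, an alternative chosen after seeing the data, left the counts of members called at 1, 0 and 0.

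Counts over all genes moved more. For 9-month cre against control, 1087 calls became 489 with no filter, 185 with the 2 groups alone, 317 with the replicate block, 1689 with array weights, 0 with slide as a block (837 at an unadjusted p under 0.05 in limma) or with sex in the model, and 158 to 1638 without 1 array. For 3-month cre against control, 76 calls became 49 with normexp, 43 with the deposited values, 14 with no filter, 45 with probes well above background on all arrays, 389 with the 2 groups alone, 42 with the replicate block, 4294 with array weights, 0 with slide (1144 at an unadjusted p) or with sex, and 1 to 322 without 1 array. For 9-month against 3-month cre, 840 calls became 427 with median scaling, 104 with no filter, 335 with the 2 groups alone, 0 with slide (3589 at an unadjusted p), 234 with sex, 6 with the replicate block, 2329 with array weights, and 0 to 1224 without 1 array. The deposited values gave 555 higher and 655 lower for 9-month cre against control, where the main setting gave 614 and 473. Replicate numbers did not pair the lungs, so the replicate block describes no design of the study. Each call rests on 3 arrays per group, and the dim probes of Nkx2-5, Perm1 and Klhl31 lie close to background, which limits their levels. Npr1, Myl2, Gata4 and, on most arrays, Hey2 were about as dim. With normexp, Myl2 in 9-month cre against control went from 0.67 to 0.33 and Gata4 from -0.90 to -0.55.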
